A study of Mus musculus with 21 samples.

Results

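The 10 genes described here mark white and brown adipocytes, and they were followed in the colon RNA of germ-free (GF) mice: *Adipoq*, *Lep*, *Cfd*, *Retn*, *Plin1*, *Cidec*, *Fabp4*, *Lpl*, *Pparg* and *Ucp1*. They were found by gene name, or by the gene of the RefSeq record a probe was designed for, and each is represented by its brightest probe. At day 0 all 10 were on the array, with 21 probes, among 27499 named genes and 56605 probes, and at day 7 all 10 were present with 13 probes, among 24191 named genes and 55681 probes. At day 0 the filter on dim signals left 9 of the 10 for the comparison (*Ucp1* was dropped) and at day 7 it left all 10, among them *Lep* and *Ucp1*, which met its detection p-value without being well above background by the stricter call of the scanner software.

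The arrays are single-color and hold total colon RNA of male C57BL/6J mice that were raised without a microbiota. At day 0, before any dextran sulfate sodium (DSS, which injures the colon epithelium when given in drinking water), 7 arrays were labelled GF Card9-/- and 6 GF WT. At day 7, after DSS at 2% in the drinking water, 4 arrays were labelled GF Card9-/- and 4 GF WT. Card9 is an adaptor of innate immune receptors, and all groups share the germ-free state. The age of these mice and the number of animals behind each array were not given in the labels, which also do not say whether GF Card9-/- replicates 2 and 2.1 of day 7 are separate animals. They are counted as separate arrays in n = 4, and p-values measure the spread between arrays, which may be technical. Array designs differ between the days, hence the day and the design cannot be told apart, and levels at day 7 were not compared with day 0.

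At day 0 the arrays came from 4 slides, all with both labels, and 2 scan sessions. At day 7 they came from 6 slides and 1 session, and both labels met on only 2 of the slides. The share of spots well above background ran from 54.5% to 64.9% at day 0 and from 42.2% to 57.1% at day 7. All 7 colonocyte markers were well above background on all 21 arrays. *Card9* itself went against the labels: its log2 signal at day 0 was 8.90 ± 0.20 (SD, n = 7) on arrays labelled GF Card9-/- and 2.32 ± 0.01 (SD, n = 6) on arrays labelled GF WT, and at day 7 it was 8.13 ± 0.29 (SD, n = 4) and 3.76 ± 2.73 (SD, n = 4). The part of *Card9* deleted in these mice is not given in the sources used here, and 1 of the 4 day 7 arrays labelled GF WT also held *Card9* well above background. Groups are therefore named by their labels throughout, and each direction below rests on them.

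Adipocytes store triglyceride in a lipid droplet and secrete hormones called adipokines. White adipocytes hold 1 large droplet and release fatty acids on demand, whereas brown adipocytes burn them for heat through the uncoupling protein UCP1. The colon wall has few adipocytes of its own, but mesenteric fat runs along its outer side. In RNA from whole tissue, fewer adipocytes and less RNA per adipocyte cannot be told apart.

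Each probe is 60 bases long, and only its first 30 bases are shown, in the direction of the transcript, with positions on the NCBI37 build. The *Adipoq* and *Cfd* probes are shown because the description below turns on them, and the *Ucp1* probe because none of the 21 arrays held it well above background. The *Lep* and *Cidec* probes are shown because the array designs of the days share no probe for these genes.
*Adipoq* probe, both days, chr16:23157576-23157635, plus strand: tgtatggggatggggaccacaatggactct
*Cfd* probe, both days, chr10:79355302-79355361, plus strand: aacatcacaaatggtaacatgacatcctga
*Lep* probe, day 0, chr6:29020910-29020969, plus strand: actctggcagtctatcaacaggtcctcacc
*Lep* probe, day 7, chr6:29023234-29023293, plus strand: agtttggatcttgggttttctgttaagaga
*Cidec* probe, day 0, chr6:113374693-113374752, minus strand: tgcctgaatggacacagttcctgttctcct
*Cidec* probe, day 7, chr6:113374630-113374689, minus strand: tttttccacgaatgagtgaatggtattaga
*Ucp1* probe, both days, chr8:85821788-85821847, plus strand: ggaacgtcatcatgtttgtgtgctttgaac
The other 5 genes (*Retn*, *Plin1*, *Fabp4*, *Lpl* and *Pparg*) were read by the same probe at both days.

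Adipocyte transcripts were clearly present in the colon RNA, and their level varied widely from array to array. At day 0, 5 of the 10 genes were well above background on all 13 arrays, and 9 of the 10 on 12 arrays. At day 7, 8 of the 10 were well above background on all 8 arrays. The exceptions were *Ucp1* at both days and *Lep* at day 7, which were not well above background on any array. Values below are log2 of the processed signal after quantile normalization within a day, and differences are always arrays labelled GF Card9-/- minus arrays labelled GF WT.

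**Figure D1:**
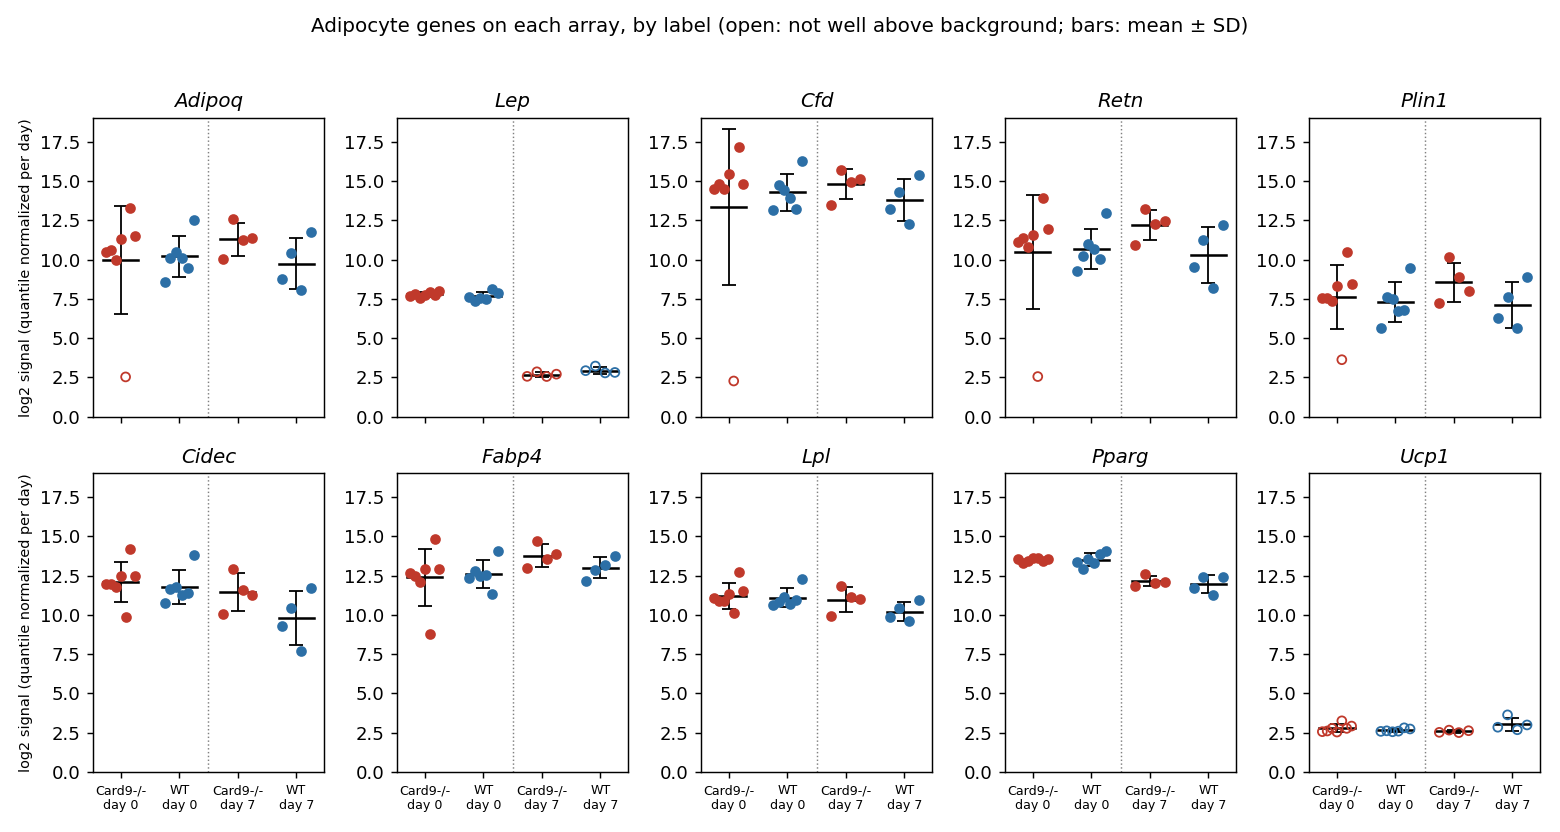
Log2 signal of the 10 adipocyte genes (1 panel each), with 1 point per array, in the 4 groups given by label and day. Filled points were well above background and open points were not, horizontal lines are group means and bars the SD. The open red points of *Adipoq*, *Cfd*, *Retn* and *Plin1* at day 0 are all GF Card9-/- replicate 5, and *Ucp1* is open on all 21 arrays.

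*Adipoq* encodes adiponectin, a hormone made almost only by adipocytes. At day 0 its log2 signal on the arrays labelled GF Card9-/- had a lowest value of 2.52, a median of 10.59 and a highest of 13.31, and on those labelled GF WT a lowest of 8.58, a median of 10.11 and a highest of 12.5. The groups overlapped, and 1 array, GF Card9-/- replicate 5, lay far below all others. *Adipoq* was not well above background there, which places it at least 8.91-fold below the lowest of the other 12 arrays. Such a bound compares the lowest of the other arrays with the dimmest probe that was well above background on the low array. At day 7 the 4 arrays labelled GF Card9-/- read 10.01 (replicate 2), 12.59 (replicate 2.1), 11.21 (replicate 4) and 11.35 (replicate 6). The 4 labelled GF WT read 8.74 (replicate 1), 10.41 (replicate 4), 8.08 (replicate 5) and 11.73 (replicate 6). The groups overlapped again, since GF WT replicate 6 lay above 3 of the 4 arrays labelled GF Card9-/-.

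*Cfd* encodes complement factor D (adipsin), a serine protease that adipocytes secrete. At day 0 it ran from 2.26 over a median of 14.80 to 17.16 on arrays labelled GF Card9-/- and from 13.13 over 14.17 to 16.30 on arrays labelled GF WT. On GF Card9-/- replicate 5 it was at least 209-fold below the lowest other array. At day 7 *Cfd* read 13.45, 15.73, 14.95 and 15.16 on GF Card9-/- replicates 2, 2.1, 4 and 6, and 13.25, 14.31, 12.28 and 15.41 on GF WT replicates 1, 4, 5 and 6. The high and the low arrays were those of *Adipoq*.

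*Retn* encodes resistin, an adipokine of mouse fat. At day 0 it ran from 2.54 over 11.37 to 13.91 on arrays labelled GF Card9-/- and from 9.28 over 10.44 to 12.98 on arrays labelled GF WT, and on GF Card9-/- replicate 5 it was at least 14.4-fold below the lowest other array. At day 7 it read 10.93, 13.25, 12.27 and 12.42 on GF Card9-/- replicates 2, 2.1, 4 and 6, and 9.55, 11.27, 8.16 and 12.17 on GF WT replicates 1, 4, 5 and 6. Here 3 of the 4 arrays labelled GF Card9-/- lay above all 4 labelled GF WT, and replicate 2 lay within their range. On the other *Retn* probe of day 7 only 2 of the 4 lay above all 4.

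*Lep*, which encodes the satiety hormone leptin, behaved differently from the other adipokines. Its day 0 probe lay between 7.37 and 8.10 on all 13 arrays, a range of 0.73, and GF Card9-/- replicate 5 was not low (7.91). Its day 7 probe lay between 2.55 and 3.21, not well above background on any of the 8 arrays.

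Droplet proteins followed the adipokines other than *Lep*. *Plin1* encodes perilipin 1, which coats the droplet and controls lipolysis. At day 0 it ran from 3.62 over 7.54 to 10.47 on arrays labelled GF Card9-/- and from 5.61 over 7.14 to 9.43 on arrays labelled GF WT, and on GF Card9-/- replicate 5 it was not well above background (at least 1.14-fold below the lowest other array). At day 7 it read 7.23, 10.13, 8.86 and 7.97 on GF Card9-/- replicates 2, 2.1, 4 and 6, and 6.26, 7.62, 5.61 and 8.90 on GF WT replicates 1, 4, 5 and 6. *Cidec*, whose product fuses droplets into a single large one, ran at day 0 from 9.89 over 11.97 to 14.19 and from 10.74 over 11.51 to 13.80 in the same groups. At day 7 *Cidec* read 10.04, 12.94, 11.60 and 11.25 on GF Card9-/- replicates 2, 2.1, 4 and 6, and 9.28, 10.45, 7.72 and 11.70 on GF WT replicates 1, 4, 5 and 6. Both genes were highest on GF Card9-/- replicate 6 at day 0 and on replicate 2.1 at day 7.

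*Fabp4*, a fatty acid binding protein of adipocytes that endothelium and macrophages also express, ran at day 0 from 8.79 over 12.66 to 14.82 on arrays labelled GF Card9-/- and from 11.29 over 12.51 to 14.04 on arrays labelled GF WT. *Lpl*, the lipoprotein lipase that frees fatty acids from circulating triglyceride, ran from 10.09 over 11.04 to 12.70 and from 10.64 over 10.86 to 12.27. Both were well above background on GF Card9-/- replicate 5, where they were at their lowest. At day 7 *Fabp4* read 12.95, 14.70, 13.57 and 13.86 on GF Card9-/- replicates 2, 2.1, 4 and 6, and 12.15, 12.88, 13.18 and 13.74 on GF WT replicates 1, 4, 5 and 6. *Lpl* read 9.89, 11.82, 11.12 and 11.02 and then 9.86, 10.42, 9.57 and 10.92 on the same arrays. For *Lpl*, 3 of the 4 arrays labelled GF Card9-/- lay above all 4 labelled GF WT, and for *Fabp4* 2 of the 4 did. On the other *Lpl* probe of day 7 only 2 of the 4 did.

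*Pparg* encodes the nuclear receptor that drives adipocyte differentiation and that colon epithelium also expresses. At day 0 it ran only from 12.93 to 14.05 over all 13 arrays, with 13.63 on GF Card9-/- replicate 5, where *Adipoq*, *Cfd*, *Retn* and *Plin1* were not well above background. At day 7 it ran from 11.27 to 12.63. *Ucp1*, the uncoupling protein of brown fat, stayed between 2.53 and 3.25 at day 0 and between 2.50 and 3.63 at day 7, not well above background on any of the 21 arrays.

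GF Card9-/- replicate 6 was the highest array at day 0 for 7 of the 9 genes measured above background, GF WT replicate 6 the second highest for the same 7, and GF Card9-/- replicate 5 the lowest for the same 7 (*Adipoq*, *Cfd*, *Retn*, *Plin1*, *Cidec*, *Fabp4* and *Lpl*). All 3 of these arrays lie on 1 slide. At day 7, GF Card9-/- replicate 2.1 was the highest for all 8 genes measured above background, and GF WT replicate 5 the lowest for 7 of the 8 (for *Fabp4* it was GF WT replicate 1). Without GF Card9-/- replicate 5, the highest of the 12 remaining day 0 arrays exceeded the lowest 26.4-fold for *Adipoq*, 29.1-fold for *Plin1*, 24.7-fold for *Retn*, 16.3-fold for *Cfd*, 11.5-fold for *Fabp4*, 11-fold for *Cidec* and 4.18-fold for *Lpl*. For *Pparg* and *Lep* the same ratio was 2.17 and 1.65. At day 7 it was 22.7 for *Adipoq*, 23.0 for *Plin1*, 33.9 for *Retn*, 10.9 for *Cfd*, 5.85 for *Fabp4*, 37.4 for *Cidec*, 4.74 for *Lpl* and 2.57 for *Pparg*.

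The spread within a group was set against that of all tested probes. At day 0, 0.0169% of the 47410 tested probes had a larger residual SD than *Cfd*, 0.0612% a larger one than *Retn*, 0.0675% a larger one than *Adipoq* and 0.519% a larger one than *Plin1*, and all 4 of these shares include a value on GF Card9-/- replicate 5 that was not well above background. The share was 1.4% for *Fabp4*, 3.58% for *Cidec*, 14.6% for *Lpl*, 50.7% for *Pparg* and 65.4% for *Lep*. At day 7 the shares were 2.74% for *Cidec*, 3.07% for *Retn*, 3.63% for *Adipoq*, 3.81% for *Plin1* and 6.50% for *Cfd*. They were 24.7% for *Lpl*, 25.4% for *Fabp4* and 43.9% for *Pparg*.

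Whether the genes vary together was tested against *Adipoq*, with 18 relations (9 genes at each of 2 days) and p-values from two-sided permutation tests adjusted over the 18. At day 0, 6 of the 9 genes varied with *Adipoq* over the 13 arrays. Pearson's r was 0.997 for *Retn* (Spearman's rho 0.978), 0.975 for *Cfd* (rho 0.934), 0.953 for *Fabp4* (rho 0.911), 0.945 for *Plin1* (rho 0.945), 0.869 for *Cidec* (rho 0.945) and 0.798 for *Lpl* (rho 0.868). The permutation p was 1e-05, the smallest that 100000 resamples can give, for *Retn*, *Plin1* and *Cidec*, 2e-05 for *Cfd* and *Fabp4* and 0.0016 for *Lpl*, with adjusted values from 6e-05 to 0.00262. The rank tests gave permutation p-values from 1e-05 to 0.00026 for these 6 genes (adjusted 6e-05 to 0.000669). *Lep* (r = -0.11, rho 0.17, permutation p = 0.724, adjusted 0.868) and *Pparg* (r = 0.04, rho 0.17, permutation p = 0.865, adjusted 0.915) did not pass. For *Ucp1*, not well above background on any of these arrays, r was -0.61 and rho -0.16 (permutation p = 0.0662, adjusted 0.0851).

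At day 7, 7 of the 9 genes varied with *Adipoq* over the 8 arrays in exact permutation tests. Pearson's r was 0.984 for *Cidec* (rho 0.976), 0.983 for *Retn* (rho 0.929), 0.978 for *Cfd* (rho 1), 0.976 for *Plin1* (rho 0.976), 0.949 for *Lpl* (rho 0.905), 0.893 for *Pparg* (rho 0.857) and 0.811 for *Fabp4* (rho 0.810). The exact permutation p ranged from 2.48e-05 for *Cfd* to 0.0135 for *Fabp4* (adjusted 7.44e-05 to 0.0188), and the exact rank p for the same 7 genes ranged from 4.96e-05 to 0.0218 (adjusted 0.000149 to 0.0302). *Lep* (r = -0.10, rho 0, exact permutation p = 0.811, adjusted 0.912) and *Ucp1* (r = -0.04, rho -0.07, exact permutation p = 0.923, adjusted 0.923), neither well above background on any array, did not pass. *Pparg* thus varied with *Adipoq* at day 7 and did not pass at day 0, and the difference between its correlations was not tested.

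The relations were computed again without the 2 arrays farthest from the median of *Adipoq* (at day 0 GF Card9-/- replicates 5 and 6, at day 7 GF WT replicates 5 and 1). At day 0 r was then 0.982 for *Retn*, 0.972 for *Plin1*, 0.960 for *Cidec*, 0.926 for *Cfd*, 0.890 for *Lpl* and 0.794 for *Fabp4* over 11 arrays. At day 7 it lay between 0.944 and 0.983 for *Cidec*, *Retn*, *Fabp4*, *Lpl*, *Cfd* and *Plin1* over 6 arrays. For *Pparg* it fell to 0.699 and did not pass (exact permutation p = 0.136, adjusted 0.175). By rank, *Retn*, *Fabp4* and *Lpl* did not pass after adjustment over these 6 arrays either, with a Spearman's rho of 0.83, 0.886 and 0.771 (exact permutation p = 0.0583, 0.0333 and 0.103, adjusted 0.0955, 0.06 and 0.154). Within the first scan session of day 0 (6 arrays) r was 0.989 for *Cidec*, 0.968 for *Plin1*, 0.967 for *Retn* and 0.852 for *Cfd*, all with an exact permutation p of 0.00694 or lower (adjusted 0.0156 or lower), and 0.83 for *Lpl* and 0.546 for *Fabp4* (exact permutation p = 0.0569 and 0.25, adjusted 0.103 and 0.359). Within the second session (7 arrays) r was at least 0.834 for all 6 genes. With each gene centred on its label, *Fabp4* at day 7 had r = 0.731 (exact permutation p = 0.0398, adjusted 0.0551). In the same setting *Pparg* at day 7 had r = 0.940 (exact permutation p = 0.00136, adjusted 0.00216).

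**Figure D2:**
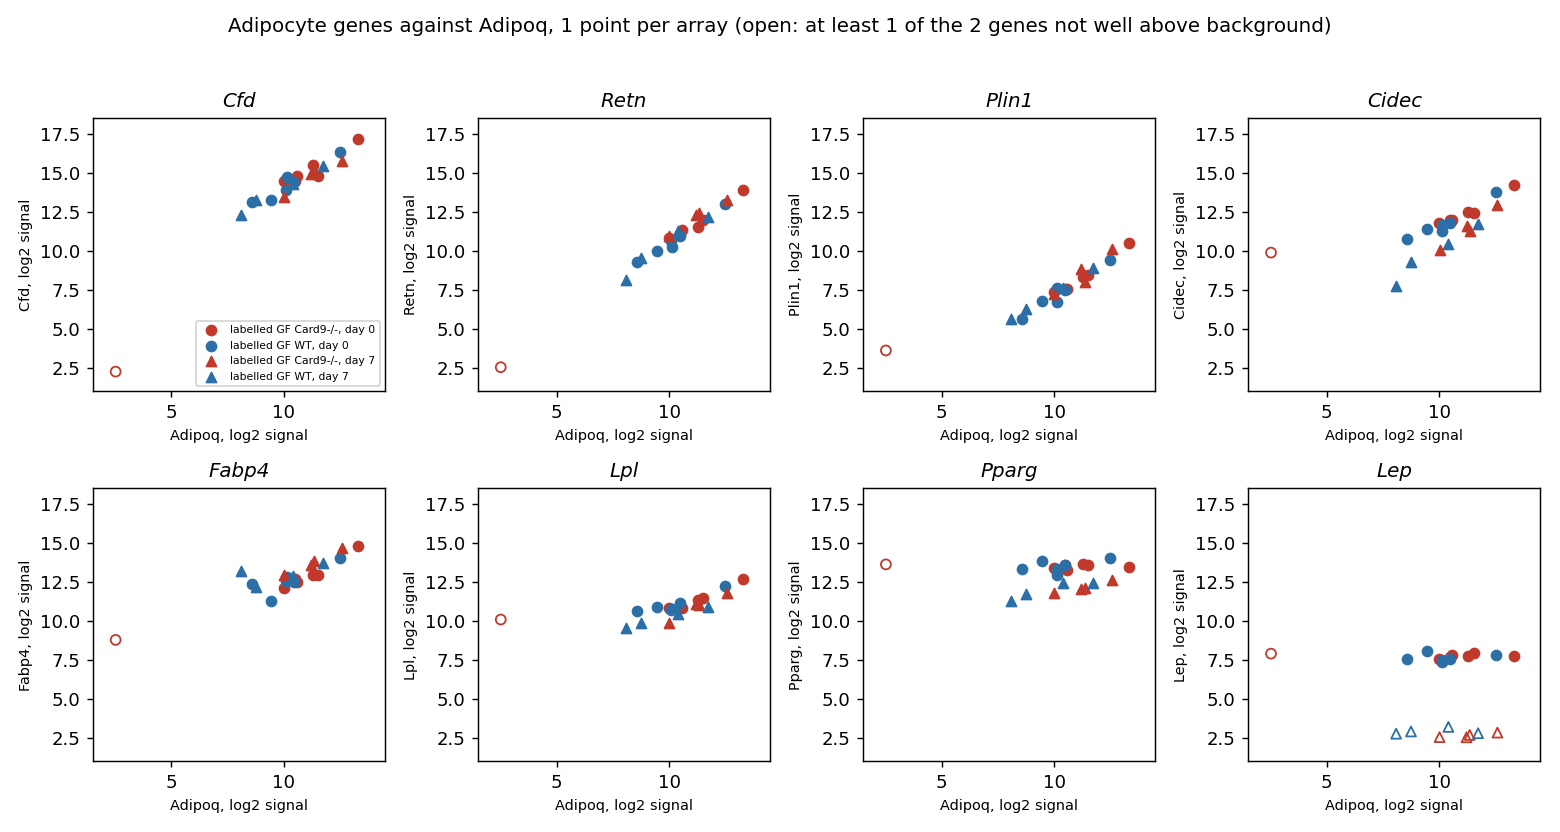
Log2 signal of 8 adipocyte genes (vertical axes) against that of *Adipoq* (horizontal axes) on the same array, with circles for day 0, triangles for day 7, red for arrays labelled GF Card9-/- and blue for GF WT; open symbols mark arrays where at least 1 of the 2 genes was not well above background. *Cfd*, *Retn*, *Plin1* and *Cidec* rise with *Adipoq* in both groups at both days, while *Lep* stays level and *Pparg* stays level at day 0.

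The RefSeq promoter table (GRCm38.p6) holds 11 windows for 8 of the 10 genes; *Fabp4* and *Lpl* have none. The 250 bases before the annotated start are shown for *Adipoq* and the 4 genes in the table that varied with it at both days, and for *Lep* as a gene that did not. Capitals mark matches, on either strand, to a C/EBP motif (TTGCNNAA), to a TATA box (TATAAA) or to a direct repeat of the kind that PPARG binds with its partner RXR (AGGNCA, any base, AGGNCA). C/EBP factors and PPARG are the main transcription factors of adipocyte differentiation.
*Adipoq* promoter, chr16:23146286-23146535, plus strand: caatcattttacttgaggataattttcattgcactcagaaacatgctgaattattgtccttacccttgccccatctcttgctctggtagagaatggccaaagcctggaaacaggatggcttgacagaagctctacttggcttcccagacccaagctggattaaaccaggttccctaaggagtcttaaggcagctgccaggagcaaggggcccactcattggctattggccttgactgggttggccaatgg
*Cfd* promoter, chr10:79890603-79890852, plus strand: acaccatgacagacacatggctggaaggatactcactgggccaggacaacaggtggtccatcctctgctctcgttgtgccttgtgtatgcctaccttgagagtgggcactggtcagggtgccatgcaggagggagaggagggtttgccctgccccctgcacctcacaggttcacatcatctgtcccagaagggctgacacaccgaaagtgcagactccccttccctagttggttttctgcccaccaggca
*Retn* promoter, chr8:3655520-3655769, plus strand: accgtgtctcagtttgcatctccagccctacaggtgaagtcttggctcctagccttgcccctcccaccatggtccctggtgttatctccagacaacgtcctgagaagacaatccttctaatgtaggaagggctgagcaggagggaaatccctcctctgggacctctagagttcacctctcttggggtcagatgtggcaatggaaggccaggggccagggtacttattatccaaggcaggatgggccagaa
*Plin1* promoter, chr7:79732777-79733026, minus strand: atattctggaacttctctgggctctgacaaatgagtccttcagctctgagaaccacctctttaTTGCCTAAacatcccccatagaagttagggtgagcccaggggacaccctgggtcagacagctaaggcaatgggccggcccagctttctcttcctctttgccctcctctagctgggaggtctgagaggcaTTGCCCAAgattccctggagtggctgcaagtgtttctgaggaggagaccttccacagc
*Cidec* promoter, chr6:113435761-113436010, minus strand: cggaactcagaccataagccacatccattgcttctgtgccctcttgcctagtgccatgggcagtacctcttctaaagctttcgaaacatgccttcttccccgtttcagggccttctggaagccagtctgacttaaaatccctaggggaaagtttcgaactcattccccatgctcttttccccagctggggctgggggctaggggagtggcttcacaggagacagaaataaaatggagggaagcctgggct
*Cidec* promoter, chr6:113434765-113435014, minus strand: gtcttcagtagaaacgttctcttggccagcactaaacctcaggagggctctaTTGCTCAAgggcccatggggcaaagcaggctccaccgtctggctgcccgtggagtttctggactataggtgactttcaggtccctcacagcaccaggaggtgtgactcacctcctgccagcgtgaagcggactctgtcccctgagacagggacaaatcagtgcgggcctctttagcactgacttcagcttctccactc
*Lep* promoter, chr6:29059971-29060220, plus strand: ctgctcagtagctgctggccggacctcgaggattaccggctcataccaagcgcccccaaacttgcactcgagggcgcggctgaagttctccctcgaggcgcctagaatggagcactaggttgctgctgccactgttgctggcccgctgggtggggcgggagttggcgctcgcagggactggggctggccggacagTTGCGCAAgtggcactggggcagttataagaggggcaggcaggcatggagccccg
The C/EBP letters occurred in 4 of the 11 windows, in *Lep*, *Plin1* (at 2 places), 1 of the 2 windows of *Cidec* and 1 of the 3 of *Pparg*, and in 9.56% of all 32851 windows of this length. The *Lep* match reads the same on both strands. The TATA letters occurred in 1 of the 11 windows, of *Pparg*, and in 12.4% of all windows, and the direct repeat occurred in none of the 11 and in 0.338% of all. The windows of *Adipoq*, *Cfd* and *Retn* hold none of the 3 motifs, and *Lep*, which did not vary with *Adipoq*, holds 1. A match describes the letters of the window only.

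Arrays labelled GF Card9-/- and GF WT were compared within each day by limma, with adjustment over all probes tested. At day 0, 0 of the 9 genes tested passed an adjusted p under 0.05, where 12 of 47410 probes did (0.0253%), and 0 of the 9 had an unadjusted p under 0.05, where 2769 probes did (5.84%). None of the 9 had values that did not overlap between the labels, against 0.458% of all tested probes. Of the 9 differences 4 were above 0 and 5 below, with a median of -0.01, beside 55.5% above 0 and a median of 0.01 over all 23741 genes tested. At day 7, 0 of the 10 genes passed, where 0 of 44643 probes did (0%), and 0 of the 10 had an unadjusted p under 0.05, where 1511 probes did (3.38%). Only *Ucp1* had values that did not overlap (2.50 to 2.65 against 2.68 to 3.63), against 2.13% of all tested probes, and since it was not well above background on any of the 8 arrays it is given no fold. Of the 10 differences 8 were above 0, with a median of 0.90, beside 49.7% above 0 and a median of -0.00 over all 21091 genes tested. The 8 genes vary together from array to array, so that 8 differences in 1 direction are not 8 independent observations.

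Mean values were 9.96 ± 3.45 (SD, n = 7) on arrays labelled GF Card9-/- and 10.20 ± 1.31 (SD, n = 6) on arrays labelled GF WT for *Adipoq* at day 0, a difference of -0.25 (95% confidence interval -3.34 to 2.84, limma adjusted p = 0.990). *Cfd* differed by -0.94 (-5.25 to 3.37), *Retn* by -0.22 (-3.45 to 3), *Fabp4* by -0.20 (-1.87 to 1.48), *Plin1* by 0.33 (-1.67 to 2.34), *Cidec* by 0.34 (-1.02 to 1.69) and *Lpl* by 0.12 (-0.71 to 0.95), with limma adjusted p-values from 0.954 to 0.990. These intervals are wide, and they leave room for differences of several fold in both directions for *Adipoq*, *Cfd*, *Retn* and *Plin1*. *Pparg* (13.51 ± 0.13 against 13.52 ± 0.40, difference -0.01, -0.34 to 0.33) and *Lep* (7.77 ± 0.14 against 7.66 ± 0.27, difference 0.11, -0.13 to 0.36) had narrow intervals.

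The signs of *Adipoq*, *Cfd*, *Retn* and *Fabp4* at day 0 rested on single arrays. Leaving out GF WT replicate 6 turned *Adipoq*, *Retn* and *Fabp4*, but not *Cfd*. *Adipoq*, *Cfd*, *Retn* and *Fabp4* all turned on leaving out GF Card9-/- replicate 5. Without this array the differences of *Adipoq*, *Cfd*, *Retn* and *Fabp4* were 0.99 ± 0.68, 0.91 ± 0.60, 1.10 ± 0.65 and 0.40 ± 0.50 (standard error), and those of *Plin1*, *Cidec* and *Lpl* were 1 ± 0.67, 0.70 ± 0.54 and 0.30 ± 0.36, all with a limma adjusted p of 1. Without all 3 arrays of the slide that holds it, *Adipoq* differed by 1.03 ± 0.41 and *Retn* by 1.13 ± 0.33 (limma adjusted p = 0.863 and 0.716). In that smaller set all 9 differences were above 0 and 5 of the 9 had an unadjusted p under 0.05 (*Adipoq*, *Cfd*, *Retn*, *Plin1* and *Cidec*), where 2816 of 50883 probes did, and 0 of the 9 passed the adjusted threshold. With the slide as a block the differences were -0.15 for *Adipoq*, -0.66 for *Cfd* and -0.11 for *Retn*. Within scan session 1 they were 1.32 for *Adipoq*, 1.01 for *Cfd* and 1.53 for *Retn*, and within session 2, which holds GF Card9-/- replicate 5, they were -1.63, -2.54 and -1.75.

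At day 7 the largest difference among the 8 genes above background was that of *Retn*, 12.22 ± 0.96 (SD, n = 4) against 10.29 ± 1.79 (SD, n = 4), or 1.93 (3.81-fold, 95% confidence interval -0.21 to 4.07). *Cidec* differed by 1.67 (-0.53 to 3.86), *Adipoq* by 1.55 (-0.51 to 3.61), *Plin1* by 1.45 (-0.59 to 3.48), *Cfd* by 1.01 (-0.75 to 2.77), *Fabp4* by 0.78 (-0.27 to 1.83), *Lpl* by 0.77 (-0.30 to 1.83) and *Pparg* by 0.19 (-0.53 to 0.91). The limma adjusted p was 0.943 for *Pparg* and 0.913 for the other 7, so that none of these differences stood out from the spread between arrays. Without GF WT replicate 6, the highest of the arrays with that label, the difference of *Retn* was 2.56 and that of *Adipoq* 2.21. These were the largest differences with an array left out, and the smallest were 1.22 for *Retn* and 0.998 for *Adipoq*. Without GF WT replicate 6, 4 of the 10 genes (*Retn*, *Adipoq*, *Cidec* and *Plin1*) had an unadjusted p under 0.05, where 2964 of 46972 probes did. Their limma adjusted p was 0.763.

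Within slides the sign turned. At day 7, 2 slides hold 1 array of each label. On 1 of them, GF Card9-/- replicate 2 lay below GF WT replicate 6 for all 8 genes above background, with differences of -1.71 for *Adipoq* (10.01 against 11.73) and -1.96 for *Cfd* (13.45 against 15.41). On the other, GF Card9-/- replicate 2.1 lay above GF WT replicate 4 for all 8, by 2.18 for *Adipoq* (12.59 against 10.41) and 2.52 for *Plin1* (10.13 against 7.62). With the slide as a random block the differences were 1.46 for *Adipoq* and 1.82 for *Retn* (limma adjusted p = 0.903). At day 0 the mean on arrays labelled GF Card9-/- was higher for 8 of the same 8 genes on slide 1, 6 of 8 on slide 2, 8 of 8 on slide 3 and 0 of 8 on slide 4, which holds GF Card9-/- replicate 5.

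**Figure D3:**
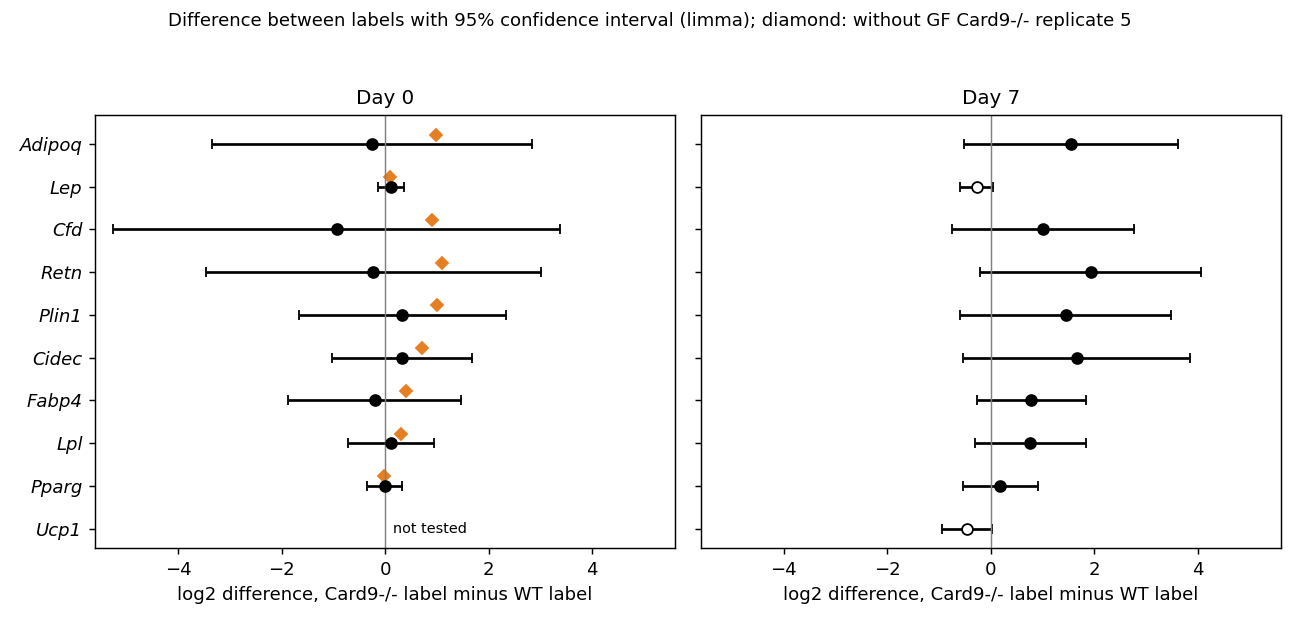
Difference in log2 signal (arrays labelled GF Card9-/- minus arrays labelled GF WT) of the 10 genes at day 0 (left) and day 7 (right), with bars for the 95% confidence interval of limma; open points are genes not well above background on any array, and diamonds give the day 0 difference without GF Card9-/- replicate 5. All intervals include 0, and the diamond of *Adipoq* is at 0.99 where its point is at -0.25.

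Whether the difference between the labels itself differs between the days was tested for the 7 genes read by the same probe at both days and tested at both. None of the 7 passed, where 0 of 23633 shared probes did (0%), and 0 of the 7 had an unadjusted p under 0.05, where 1688 of the shared probes did. The change in the difference was 2.15 ± 2.08 (standard error) for *Retn*, 1.95 ± 2.66 for *Cfd*, 1.8 ± 1.99 for *Adipoq* and 0.65 ± 0.62 for *Lpl*, and the lowest limma adjusted p among the 7 was 0.871.

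Other adipocyte genes were read from 2 lists, of 28 genes of fat cells in general and 12 of brown fat. At day 7, 23 of the 28 were above 0 and 5 below, with a median difference of 0.28, none passed the adjusted threshold in limma and 1 had an unadjusted p under 0.05. The largest were *Mrap*, an accessory protein of the receptor for the hormone ACTH, at 1.73 ± 0.94 (standard error), *Scd1*, the desaturase that makes oleic acid, at 1.51 ± 0.70, and *Adig* (adipogenin) at 1.37 ± 0.85, each with a limma adjusted p of 0.913. At day 0, 15 of the 28 were above 0 and 13 below, with a median of 0.04, beside 55.5% above 0 over all genes tested. None passed, and 1 had an unadjusted p under 0.05, as 5.84% of all tested probes did. The largest were *Cd36*, a fatty acid transporter, at -0.51 ± 0.69, *Aoc3*, an amine oxidase, at -0.51 ± 0.58, and *Mgll*, the lipase that ends triglyceride breakdown, at -0.43 ± 0.27 (limma adjusted p from 0.912 to 0.924).

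In the brown fat list, of 11 tested genes 7 were above 0 and 4 below at each day, beside 55.5% (day 0) and 49.7% (day 7) over all genes. The median was 0.03 at day 0 and 0.12 at day 7, and none passed the adjusted or the unadjusted threshold. The largest differences at day 7 were those of *Dio2*, which activates thyroid hormone, at 1.65 ± 0.77, *Ebf2*, a transcription factor, at 0.61 ± 0.72, and *Cox8b*, a subunit of cytochrome c oxidase, at 0.54 ± 0.34 (limma adjusted p from 0.913 to 0.918). *Dio2* was well above background on 3 of 4 arrays labelled GF Card9-/- and 1 of 4 labelled GF WT, and *Ebf2* on 1 of 4 in each group. At day 0 the same 3 genes led, with 0.43 ± 0.60 for *Ebf2*, -0.33 ± 0.42 for *Dio2* and 0.29 ± 0.26 for *Cox8b* (limma adjusted p from 0.912 to 0.929).

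To place other genes beside the 10, each array was given a score, the mean over the 10 genes of the log2 signal minus its mean over the arrays of the day. At day 0 the score ran from -3.69 (GF Card9-/- replicate 5) to 1.91 (replicate 6) on arrays labelled GF Card9-/- and from -0.75 (replicate 1) to 1.46 (replicate 6) on arrays labelled GF WT. At day 7 it was -0.47, 1.31, 0.45 and 0.43 on GF Card9-/- replicates 2, 2.1, 4 and 6, and -0.95, 0.05, -1.48 and 0.66 on GF WT replicates 1, 4, 5 and 6. The mean score differed by -0.06 at day 0 and by 0.86 at day 7, and by 0.55 at day 0 without GF Card9-/- replicate 5.

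The 10 other genes most like the score at day 0, by Pearson's r over the 13 arrays, were *Car3* (0.984), *Nat8l* (0.981), *Mrap* (0.978), *Serpina3m* (0.974), *Thrsp* (0.974), *Cyp2e1* (0.972), *Mup1* (0.917), *Mup4* (0.914), *Retnla* (0.911) and *Mup18* (0.911). *Car3* is a carbonic anhydrase abundant in fat and muscle, *Thrsp* a regulator of lipogenesis, and the major urinary proteins *Mup1*, *Mup4* and *Mup18* are near-identical copies whose probes may share signal. At day 7, over 8 arrays, they were *Thrsp* (0.997), *Adig* (0.990), *Anxa9* (0.986), *Chrm3* (0.985), *Bpgm* (0.984), *Pygl* (0.981), *Car3* (0.980), *Car5b* (0.980), *Atp5b* (0.979) and *Mrap* (0.978). The 2 lists of 10 share 3 genes, *Car3*, *Mrap* and *Thrsp*, or 3 of 10 of each. With so few arrays many genes reach such values, 16 of 23731 genes exceeding 0.9 at day 0 and 318 of 21080 at day 7. The day 0 list rests in part on GF Card9-/- replicate 5, since the list made without it (*Adig*, *Mrap*, *Fcor*, *Gpd1*, *Nrg4*, *Car3*, *Thrsp*, *Adhfe1*, *Gstz1* and *Clstn3*, with r from 0.985 to 0.940) shares 3 of 10 with it and 4 of 10 with the day 7 list.

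Of the 28 general adipocyte genes, 16 correlated with the score above 0.5 at day 0 and 17 at day 7, with a median r of 0.605 and 0.695. Of the 11 brown fat genes, 3 and 4 did so, with a median of 0.191 and 0.113. Without GF Card9-/- replicate 5, 17 of the 28 and 1 of the 11 did so at day 0, with a median of 0.662 and -0.04. At day 7 the r of the 11 brown fat genes ran from -0.71 (*Ppargc1a*, the coactivator of thermogenic genes) to 0.89 (*Cox8b*), with 6 of 11 above 0. At day 0 it ran from -0.465 to 0.699 (*Cox8b*), again with 6 of 11 above 0, and was -0.43 for *Ppargc1a*. Among the 28 general genes the lowest r was -0.78 at day 7 and 0.01 at day 0. All these correlations share the arrays, their slides and their normalization, and they are given as descriptions.

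Markers of other cells varied between the same arrays, and their part in the results was not tested. On GF Card9-/- replicate 5 at day 0, scored in the same way, 8 smooth muscle markers stood at -2.12, 8 macrophage markers at -1.74 and 8 endothelium markers at -1.09, each the lowest of all 13 arrays, whereas 7 mesothelium markers stood at 0.98 and 7 colonocyte markers at -0.00. It also had the lowest share of spots well above background at day 0, 54.5%. On the other arrays of its slide, GF Card9-/- replicate 6 and GF WT replicate 6, the adipocyte score was high while smooth muscle stood at -1.41 and -1.27. At day 7 the array with the highest adipocyte score, GF Card9-/- replicate 2.1, also had the highest mesothelium score, 2.07, and the lowest smooth muscle score, -1.37.

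Pancreatic enzyme genes were high on 1 day 0 array, GF Card9-/- replicate 7 (9.94), and on the day 7 arrays GF Card9-/- replicates 6 (7.75) and 2.1 (3.75), with all 10 genes well above background there, and between -2.44 and -1.95 on the 4 day 7 arrays labelled GF WT. By group, the smooth muscle score ran from -2.12 to 1.51 and from -1.27 to 1.22 at day 0 (labelled GF Card9-/- and GF WT), and from -1.37 to 0.68 and from -1.24 to 1.07 at day 7. The mesothelium score ran from -0.40 to 1.56 and from -1.39 to 0.69 at day 0, and from -0.70 to 2.07 and from -1.53 to 1.15 at day 7. The colonocyte score ran from -0.02 to 0.19 and from -0.57 to 0.37 at day 0 and from -0.09 to 0.53 and from -0.83 to 0.14 at day 7.

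**Figure D4:**
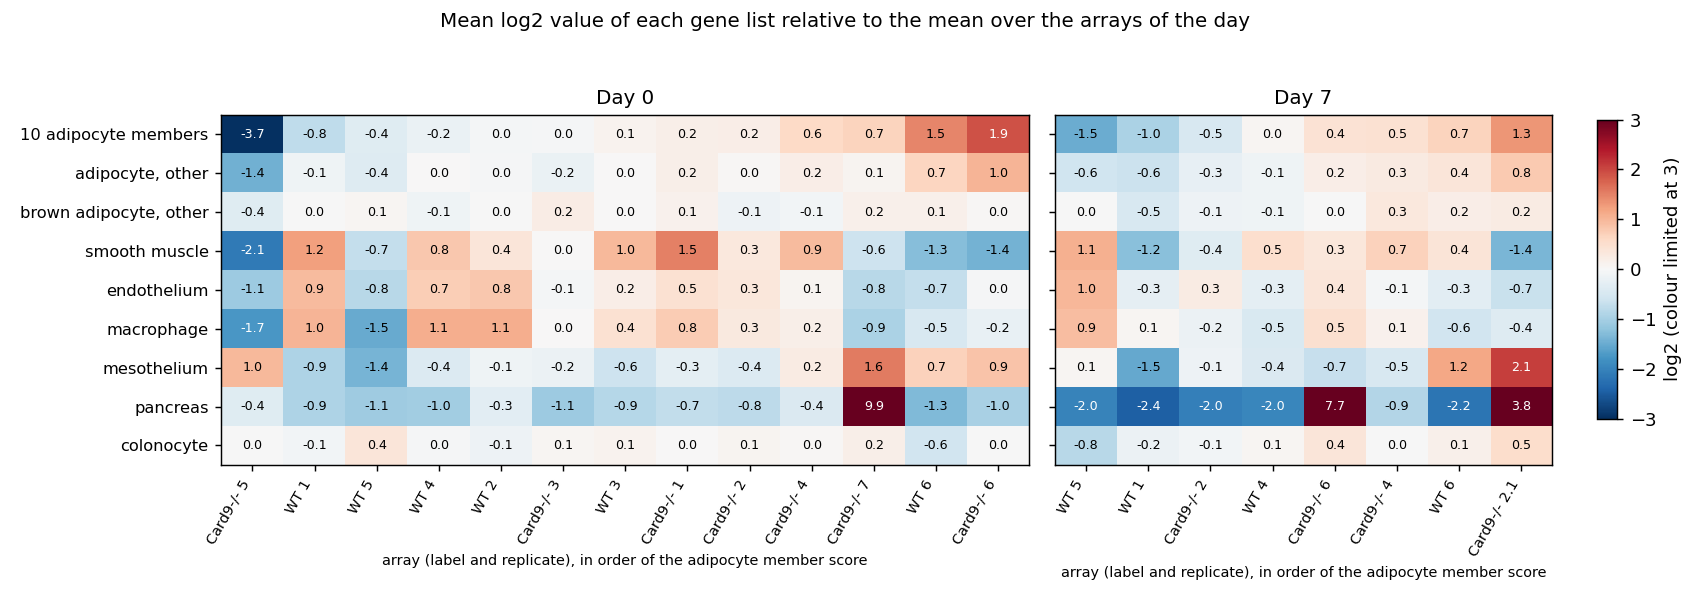
Mean log2 value of 9 gene lists (rows) on each array (columns), relative to its mean over the arrays of the day, with day 0 on the left and day 7 on the right and arrays in order of the score of the 10 adipocyte genes; red is higher, blue lower, and colour is limited at 3. The list of other adipocyte genes is lowest (-1.44) and highest (1.01) at day 0 on the same arrays as the 10 genes. The brown fat list stays between -0.48 and 0.33 at both days, with only 6 to 10 of its 12 genes well above background on an array.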

How the data were processed

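Total colon RNA was hybridised to single-color Agilent arrays, 13 at day 0 and 8 at day 7. The authors deposited scanner files made with Agilent Feature Extraction 10.7.3.1, per the file headers, which give a processed intensity, already background-corrected, and a p-value for signal over background for each spot; positions are those of NCBI37. They also deposited a table of log2 values, which served as an alternative. The signal column the authors used is not given in the sources used here.

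Log2 of the processed signal of all spots was quantile normalized over the arrays of a day. Control and outlier spots were then left out, and repeat spots were averaged. A probe entered the test if at least 50% of its spots had a detection p under 0.05 on at least 60% of the arrays of a label. Arrays labelled GF Card9-/- were compared with GF WT by limma 3.58.1 in R 4.3.3, with Benjamini-Hochberg adjustment over all probes of the day and a threshold of 0.05, and shared probes were fitted jointly for the difference between days. Quantile normalization assumes like distributions on all arrays and can compress or shift dim values. Each gene is read from its brightest probe, a choice that makes no use of the labels. Relations with *Adipoq* were tested by permutation of the arrays (exact over 8 arrays, 100000 resamples over 13) in Python 3.11.15 with scipy 1.17.1.

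The text names the 10 genes whatever their values, *Card9*, the 3 genes with the largest absolute difference in each adipocyte list and day, and the 10 genes most like the score of the 10 genes in each day; *Ppargc1a* was named after its value was seen. The genes and lists were chosen with earlier results of these data known. Gene names are those of the array files. The script was tested on simulated data: of 50 probes changed by 2 log2 units in either direction, 90.0% were called at day 0 and 46.0% (up) or 56.0% (down) at day 7, and of 50 changed by 1 log2 unit, 70.0% (up) or 62.0% (down) at day 0 and 18.0% or 20.0% at day 7. The changed probes were drawn at random with independent noise. These rates therefore do not carry over to the 10 genes, several of which spread widely and vary together. At day 0 the residual SD was 3.76 for *Cfd*, 2.82 for *Retn*, 2.70 for *Adipoq* and 1.75 for *Plin1*. It was 0.29 for *Pparg* and 0.21 for *Lep*, beside a median of 0.29 over all tested probes. The number of arrays limits the precision. Alternatives were another scaling, background correction and filter, the authors' table, slide, session and replicate number as blocks, another probe rule, and each array left out. Lists of lymphoid, skeletal muscle and small intestine genes were read too: 4 of 9, 2 of 6 and 3 of 9 tested genes were above 0 at day 0, and 9 of 9, 2 of 3 and 5 of 8 at day 7, and none passed. Over all genes tested, 55.5% were above 0 at day 0 and 49.7% at day 7. The small intestine list was added after the data were seen.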

Additional observations from a re-analysis of the deposited data

Results flagged for a closer look

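The 44 sets of values examined were those of 10 genes and their score in each of the 4 groups. In 6 of them a single array stood apart from its group by Dixon's ratio, the gap to the nearest array divided by the range. For a single set chance gives about 1 in 20. The sets are not independent, since most of the genes vary together and the score is their mean. The count of 6 therefore cannot be set against that share. All 6 were at day 0. GF Card9-/- replicate 5 lay below the rest of its group for *Adipoq* (ratio 0.693), *Cfd* (0.82), *Retn* (0.727) and the score of the 10 genes (0.654). *Cfd*, *Adipoq* and *Retn* were not well above background there, with log2 signals of 2.26, 2.52 and 2.54, so that these ratios rest on values at the background. GF WT replicate 6 lay above the rest of its group for *Cidec* (0.666) and *Lpl* (0.702), with log2 signals of 13.80 and 12.27. Both arrays share a slide with GF Card9-/- replicate 6, the highest of the day for the same genes.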

How the results depend on the processing

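No member gene passed the adjusted threshold under any of the 27 alternatives at day 0 or the 18 at day 7, and 0 of the 7 shared genes passed for the difference between days. The number of genes that varied with *Adipoq* stayed within 1.5 times its reported value. Over all probes, 12 were called at day 0, against 27 with normexp background correction, 22 in the authors' table, 1 and 3 within scan sessions 1 and 2 (fewer arrays), 7 with the replicate number as a block over the 12 arrays whose number both labels hold (11 over those arrays with no block), and 8 to 16 with an array left out; at day 7 the count was 0, and 0 to 1 with an array left out (1 without GF WT replicate 1).

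The signs of the day 0 differences were not stable: 37 of 243 values at day 0 and 5 of 178 at day 7 turned. *Adipoq* and *Retn* at day 0 were above 0 with normexp (0.19 and 0.26), in the authors' table (0.0937 and 0.18) and with dim values raised to the dimmest probe well above background (0.17 and 0.19). Within session 1, *Adipoq*, *Cfd*, *Retn*, *Fabp4* and *Pparg* were 1.32, 1.01, 1.53, 0.36 and 0.0466, and without the 3 arrays of slide 4, an alternative chosen after seeing the data, 1.03, 0.92, 1.13, 0.32 and 0.0866. Within session 2, *Plin1*, *Cidec* and *Lpl* were -0.39, -0.14 and -0.0735. *Pparg* at day 0 was 0.00736 with the 75th percentile scaling and 0.10 as the mean over its probes, and at day 7 -0.34 over the 4 of 8 arrays whose number both labels hold, with and without the replicate block. *Lep* and *Ucp1* at day 7 were both 0.028 with dim values raised. The cause was not tested.

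With each array left out in turn, day 0 differences ran from -0.81 to 0.99 for *Adipoq*, -1.57 to 0.91 for *Cfd*, -0.80 to 1.10 for *Retn*, -0.60 to 0.40 for *Fabp4*, -0.14 to 1.001 for *Plin1*, -0.0127 to 0.74 for *Cidec*, -0.13 to 0.36 for *Lpl* and -0.13 to 0.10 for *Pparg*. At day 7 they ran from 0.998 to 2.21 for *Adipoq*, 1.22 to 2.56 for *Retn* and -0.0415 to 0.34 for *Pparg*. The replicate numbers of the labels did not pair the arrays: the 6 numbers both labels hold at day 0 correlated from -0.02 to 0.37 and the 2 at day 7 0.03 and 0.11. The fit with the replicate number as a block leaves out GF Card9-/- replicate 7 at day 0 and 4 arrays at day 7. In it the score of the 10 genes differed by -0.17 at day 0 and 0.09 at day 7, against -0.06 and 0.86 over all arrays, and no member gene was called. The same arrays with no block, an alternative chosen after seeing the data, gave the same -0.17 and 0.09. Each number in this set pairs an array of each label, so a block cannot change a difference of means. The match was therefore fixed in advance and says nothing about the block. Signal over background limits *Ucp1* at both days and *Lep* at day 7.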
